A study of Oryctolagus cuniculus with 6 samples.

Results

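The keratins described here are those of conjunctival, mucosal and simple epithelium, a list of 8 genes. Of these, KRT4, KRT13, KRT19, KRT7, KRT8, KRT18 and KRT23 had a row in the count table, so that 7 of its 22190 genes were analysed, and KRT20 was not analysed here. RNA-seq of polyA RNA was carried out on primary limbal stem cells (LSCs) grown out of rabbit limbal explants, with 3 libraries from fresh corneas and 3 from preconditioned corneas. Corneas of the preconditioned group were kept in liquid nitrogen for 7 days, with IL-1β, an inflammatory cytokine, added to the freezing medium at 10 ng/mL, and were then thawed and explanted. The fresh group received neither freezing nor the cytokine, and the effects of the 2 treatments cannot be told apart in this design. Explants were cultured in keratinocyte medium, as the methods state for thawed tissue, and the culture of fresh explants is not described separately. Strain, age, sex and the number of donor animals are not given in the sources used here, and the p values therefore measure the spread between libraries, which may be partly technical.

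Keratins are intermediate filament proteins that assemble as obligate pairs of a basic type II and an acidic type I chain. Simple epithelia are characterised by KRT8 with KRT18, usually joined by KRT7 and KRT19. KRT4 with KRT13 is the pair of the suprabasal cells of non-cornified stratified mucosa, such as conjunctiva, whereas corneal epithelium is marked by KRT3 with KRT12 and basal cells of stratified epithelia by KRT5 with KRT14. In clinical work on limbal stem cell deficiency, KRT13, KRT19 and KRT7 have served as markers of conjunctival cells on the cornea, although KRT19 is also found in limbal and cultured corneal epithelium. KRT23 is an inducible type I keratin, and KRT20 is a type I keratin of the gut and of Merkel cells. In the rabbit RefSeq assembly mOryCun1.1, KRT8 and KRT18 lie side by side with 0 protein-coding genes between them.

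The libraries held 31952352 to 34327534 counts on genes. Preconditioned replicate 1 stood apart from the other libraries of its group on the first principal component, which held 50.4% of the variance, and lay between them and the fresh libraries. Differences were tested with edgeR's quasi-likelihood test over the 15029 genes that passed a filter on low counts. Levels between libraries are given as CPM, a count relative to the library size scaled by edgeR's TMM factors, and levels between genes as the deposited FPKM, which divide the count by the gene's length. A gene was called where its p, adjusted over all tested genes by the Benjamini-Hochberg method, was at most 0.05 and its level differed by 1 or more on the log2 scale. All 7 keratins passed the filter.

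KRT19 was the most abundant of these keratins in every library. In the fresh group its level was 2090.35 ± 832 FPKM (SD, n = 3), which ranked 20 among all genes by mean FPKM. KRT7 had 385 ± 113 FPKM, KRT8 206 ± 66.0 FPKM and KRT18 146 ± 41.2 FPKM in the fresh group (SD, n = 3 each). KRT23, KRT4 and KRT13 were far lower, at 7.02 ± 2.37, 3.11 ± 3.04 and 1.75 ± 0.976 FPKM (SD, n = 3 each). The group spreads of KRT7 and KRT8 came within reach of each other, as did those of KRT8 and KRT18. Within libraries, however, KRT8 exceeded KRT18 in each, and KRT7 exceeded KRT8 in each but preconditioned replicate 3. KRT23, KRT4 and KRT13 changed places from library to library. In preconditioned replicate 3, KRT8 (367 FPKM) exceeded KRT7 (178 FPKM). The FPKM values imply a gene length of 7591 bases for KRT13, against 1388 to 2094 bases for the other 6, so that the per-length level of KRT13 rests on that length. In counts, KRT13 exceeded KRT4 in each library, by 1.38 to 3.75 times.

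None of the 7 keratins was called between the groups, while 2.29% of all tested genes were. DESeq2's Wald test and limma on log2 FPKM also called 0 of the 7. At an unadjusted p under 0.05 there was 1 of the 7, KRT8, against 30.6% of all tested genes. The preconditioned libraries lay on one side of the fresh libraries for 0 of the 7 keratins, whereas such a separation was seen in 36.7% of all tested genes. Log2 fold changes were positive for 6 keratins and negative for KRT19, with a median of 0.25, beside a median of 0.01 over all tested genes. In bulk RNA, a difference in the number of cells that express a gene cannot be told apart from a difference in RNA per cell.

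**Figure D1:**
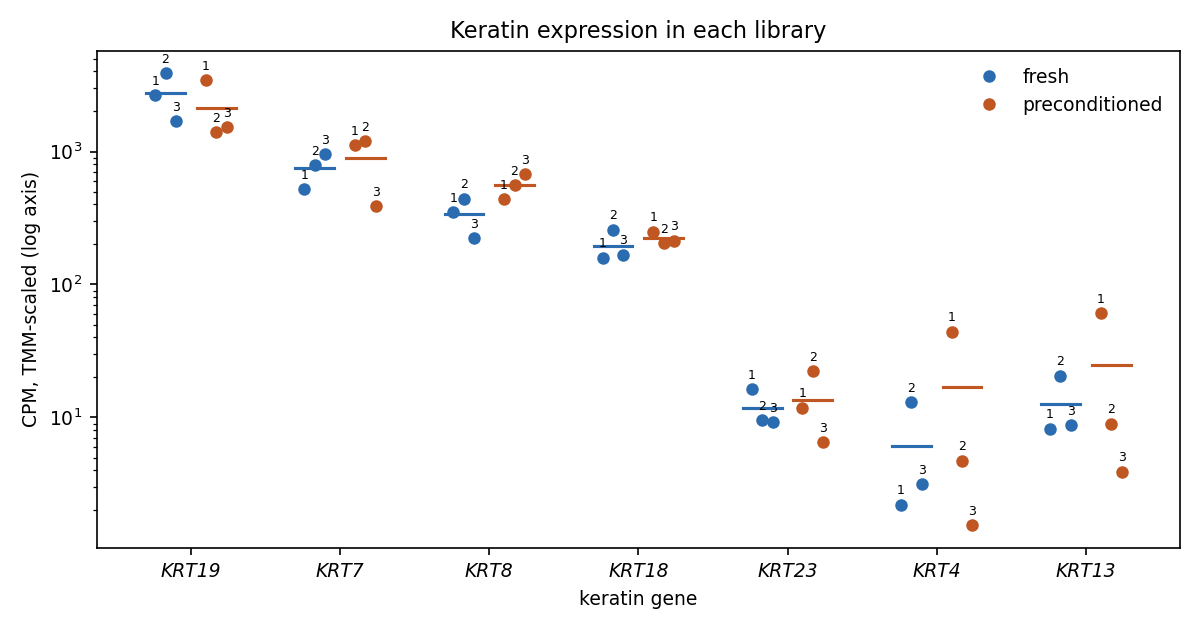
TMM-scaled CPM on a log axis for the 7 keratins, with 1 numbered point per library and a bar at the group mean (fresh in blue, preconditioned in orange). The groups overlap for every gene, and preconditioned replicate 1 stands above all other libraries for KRT4 (44.2 CPM) and KRT13 (61.1 CPM).

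KRT8, the type II keratin of simple epithelium, came nearest to a difference. Its expression was 350.5, 441 and 224 CPM in fresh replicates 1 to 3 and 436, 559 and 674 CPM in preconditioned replicates 1 to 3. Preconditioned replicates 2 and 3 lay above all fresh libraries, and preconditioned replicate 1 lay just under fresh replicate 2. The log2 fold change was 0.72 (standard error, SE, 0.27, 95% confidence interval 0.08 to 1.35, adjusted p = 0.13). It was positive in all 14 alternatives, between 0.49 and 0.95, and did not pass both cutoffs in any of them (adjusted p 0.066 to 0.29).

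KRT18, the type I partner of KRT8, varied least of the 7. It was measured at 159, 258 and 167 CPM in fresh replicates 1 to 3 and at 249, 205 and 214 CPM in preconditioned replicates 1 to 3. The preconditioned values fell inside the fresh range, with a log2 fold change of 0.19 (SE 0.20, 95% confidence interval −0.28 to 0.67, adjusted p = 0.55). It ran from 0.062 without fresh replicate 1 to 0.45 without fresh replicate 2, and was 0.025 when scaled by library size alone. A second row without a symbol, LOC100008885, is also described as keratin, type I cytoskeletal 18. Its likeness in sequence to KRT18 was not checked, nor how reads that fit both rows were counted, so the split between them is uncertain. This row had 48.9, 79.1 and 29.4 CPM in the fresh libraries and 35.3, 27.6 and 23.3 CPM in the preconditioned libraries, with −0.87 as its log2 fold change (SE 0.35, adjusted p = 0.15), which was −0.45 (adjusted p = 0.39) without fresh replicate 2. It took 14.9% to 23.5% of the counts on both rows in fresh libraries and 9.82% to 12.4% in preconditioned ones. The shares did not overlap, whereas the summed level of both rows did, at 197 to 337 CPM for fresh and 232 to 284 CPM for preconditioned libraries.

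KRT19, a type I keratin without a strict partner, was the only one of the 7 with a lower mean in the preconditioned group. Its expression was 2657, 3870.45 and 1689 CPM in fresh replicates 1 to 3 and 3448, 1401 and 1517 CPM in preconditioned replicates 1 to 3. Preconditioned replicates 2 and 3 were the lowest of the 6 libraries, and preconditioned replicate 1 was the second highest. The log2 fold change was −0.37 (SE 0.43, 95% confidence interval −1.39 to 0.65, adjusted p = 0.59), and it lay between −0.92 (adjusted p = 0.11) without preconditioned replicate 1 and −0.037 (adjusted p = 0.97) without fresh replicate 2. KRT7, a type II keratin of simple and glandular epithelium, had 522, 788 and 955 CPM in the fresh libraries and 1112, 1199.6 and 388 CPM in the preconditioned libraries. Preconditioned replicates 1 and 2 were the highest of all and preconditioned replicate 3 the lowest, and the log2 fold change was 0.25 (SE 0.43, 95% confidence interval −0.77 to 1.27, adjusted p = 0.72). KRT23 was expressed at 16.3, 9.51 and 9.24 CPM in the fresh libraries and at 11.8, 22.4 and 6.52 CPM in the preconditioned libraries. Both its highest and its lowest value were thus in the preconditioned group, with a log2 fold change of 0.22 (SE 0.46, adjusted p = 0.78). Without preconditioned replicate 2, the log2 fold change of KRT7 was −0.0071 (adjusted p = 1.0) and that of KRT23 −0.35 (adjusted p = 0.63).

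KRT4 and KRT13, the mucosal pair, had the largest positive log2 fold changes and the widest spread. KRT4 was expressed at 2.20, 13.1 and 3.15 CPM in fresh replicates 1 to 3 and at 44.2, 4.73 and 1.55 CPM in preconditioned replicates 1 to 3. KRT13 had 8.26, 20.6 and 8.78 CPM in the fresh libraries and 61.1, 8.95 and 3.92 CPM in the preconditioned libraries. For both genes preconditioned replicate 1 was the highest library, fresh replicate 2 the second, and preconditioned replicate 3 the lowest. Preconditioned replicate 1 exceeded the median of the other 5 libraries 14.1-fold for KRT4 and 6.96-fold for KRT13. The counts behind these values were 47 to 1453 per library for KRT4 and 119 to 2007 for KRT13, so that counting error is small beside the spread. The log2 fold change was 1.46 for KRT4 (SE 1.24, 95% confidence interval −1.51 to 4.42, adjusted p = 0.46) and 0.97 for KRT13 (SE 0.97, 95% confidence interval −1.34 to 3.29, adjusted p = 0.53). Both reversed without preconditioned replicate 1, to −0.98 for KRT4 (adjusted p = 0.49) and −0.98 for KRT13 (adjusted p = 0.25), so that the sign of both rested on that library. With limma on log2(FPKM + 1) and log2(FPKM + 0.1) they were 0.47 and 0.46 for KRT4, and 0.18 and 0.048 for KRT13.

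**Figure D2:**
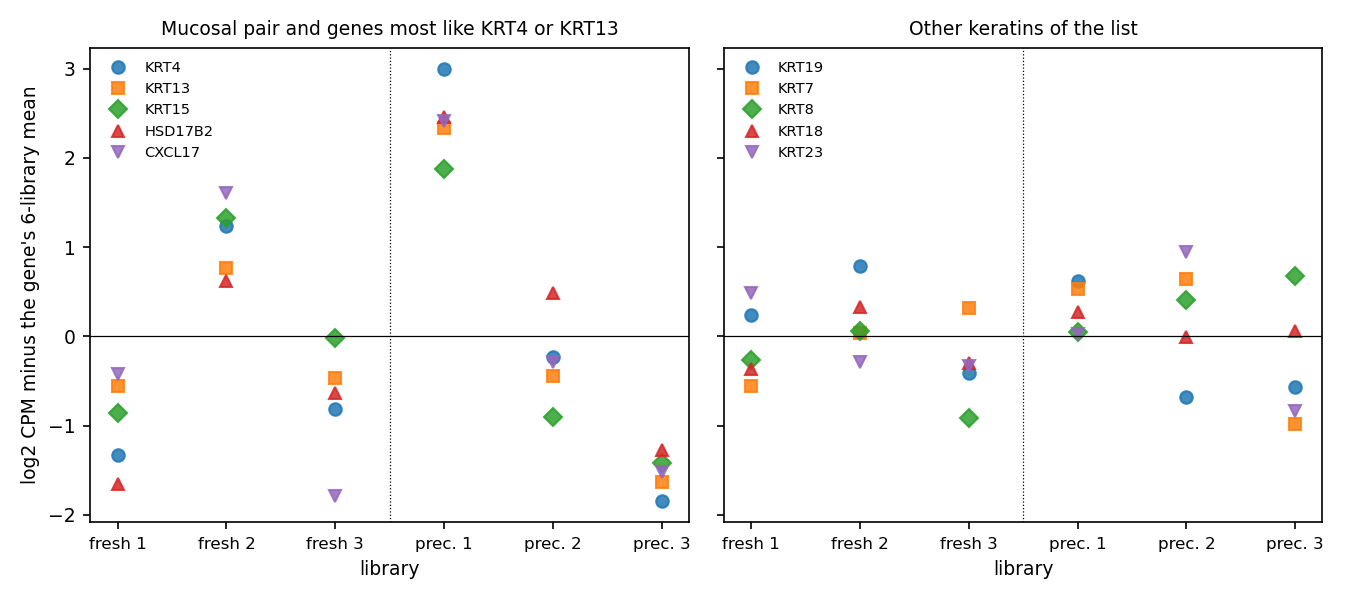
Log2 CPM of each gene minus its own mean over the 6 libraries, for KRT4, KRT13, KRT15, HSD17B2 and CXCL17 (left) and for the other keratins (right). HP1BP3 and ALPL, also near KRT13 in pattern, are not drawn. KRT4, KRT13 and KRT15 were highest in preconditioned replicate 1, second in fresh replicate 2 and lowest in preconditioned replicate 3, whereas KRT8 was highest in preconditioned replicate 3.

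The spread within groups was measured as the pooled SD of log2 CPM. It was 1.97 for KRT4 and 1.52 for KRT13, above 99.5% and 98.5% of all tested genes. KRT7 (0.72), KRT23 (0.71) and KRT19 (0.66) lay above 84.2% to 86.6% of them, KRT8 (0.42) above 68.2%, and KRT18 (0.29) near the median gene, above 53.1%. Fresh replicate 2 and preconditioned replicate 1 were the 2 highest libraries for 4 of the 7 keratins, namely KRT4, KRT13, KRT19 and KRT18. KRT8, KRT7 and KRT23 did not share this order. The share of all tested genes with the same highest pair was not counted, so the order is not shown to be particular to these keratins.

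Likeness to other genes was measured as the root mean square difference between deviations of log2 CPM from each gene's own mean over 6 libraries, among 11865 other genes with a symbol. For KRT19 the nearest genes were BNIPL (0.19), WDR25 (0.20) and RHOV (0.20), and for KRT7 they were PLEK2 (0.16), NFATC2 (0.18) and SH3RF3 (0.22). KRT4 and KRT13 were examined in the same way after their values were seen. The gene nearest to KRT4 was KRT13 (0.49), followed by HSD17B2 (0.55), a steroid dehydrogenase, and CXCL17 (0.60), a mucosal chemokine. The gene nearest to KRT13 was KRT15 (0.42), a basal keratin, followed by HP1BP3 (0.45) and ALPL (0.45), which are not keratins. KRT4 ranked 5 (0.49). KRT15 was expressed at 1.45, 6.64 and 2.60 CPM in the fresh libraries and at 9.71, 1.41 and 0.988 CPM in the preconditioned libraries. No test was attached to these distances.

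The make-up of the pool was compared per length. KRT19 made up 63.0% to 77.1% of the summed FPKM of the 7 keratins in fresh libraries and 71.4%, 48.8% and 60.0% in preconditioned replicates 1 to 3. KRT8 and KRT18 together made up 12.0% to 12.8% in fresh libraries and 12.2%, 22.5% and 29.5% in preconditioned replicates 1 to 3. The share of the simple pair was thus of like size in the 3 fresh libraries and preconditioned replicate 1, and higher in the other preconditioned libraries. Relative to KRT19, the summed FPKM of KRT8 and KRT18 was 0.156 to 0.202 in fresh libraries and 0.171, 0.461 and 0.492 in preconditioned replicates 1 to 3. KRT4 and KRT13 together made up at most 0.838% in any library, reached in preconditioned replicate 1.

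**Figure D3:**
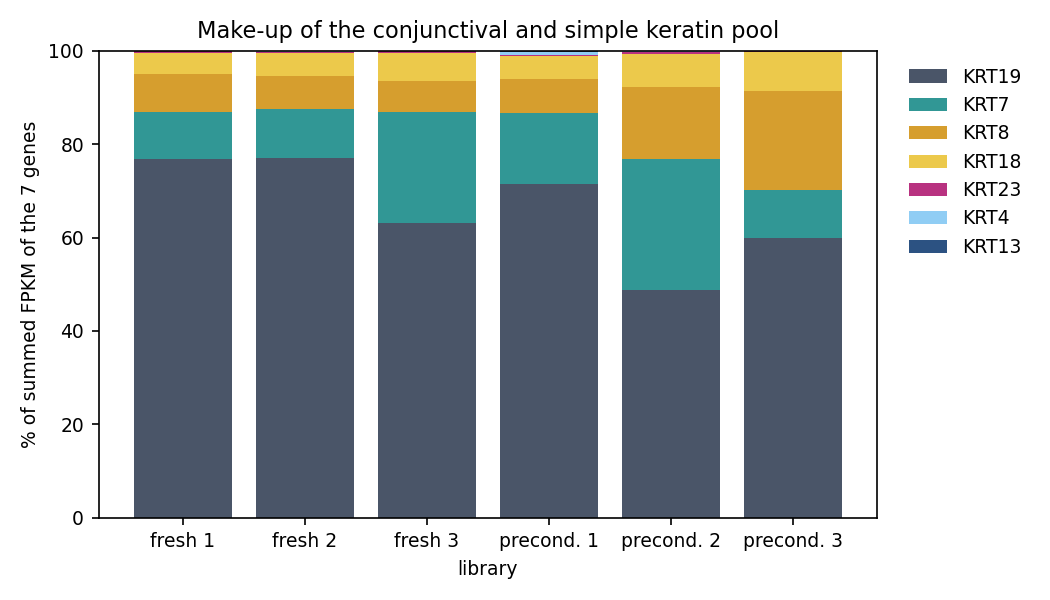
Share of each keratin in the summed FPKM of the 7 genes, as 1 stacked bar per library. The combined share of KRT8 and KRT18 (yellow tones) is 12.0% to 12.8% in the fresh libraries, 12.2% in preconditioned replicate 1, and 22.5% and 29.5% in preconditioned replicates 2 and 3.

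Ratios of type II to type I keratins were then examined, with KRT7 set beside KRT19, which has no strict partner. The log2 ratio of KRT8 to KRT18 in FPKM was 0.48 ± 0.36 for fresh and 1.01 ± 0.44 for preconditioned libraries (SD, n = 3 each), and the ratio itself ranged from 1.09 in fresh replicate 3 to 2.56 in preconditioned replicate 3. With the second keratin 18 row added to KRT18, the log2 ratios were 0.14 ± 0.29 and 0.83 ± 0.46 (SD, n = 3 each). The groups overlapped in both cases. The log2 ratio of KRT4 to KRT13 was 0.51 ± 0.63 and 0.95 ± 0.44, and that of KRT7 to KRT19 was −2.41 ± 0.87 and −1.86 ± 0.92 (SD, n = 3 each). The level of the KRT4 to KRT13 ratio rests on the implied KRT13 length of 7591 bases. In counts, KRT13 exceeded KRT4 in each library. Single libraries moved the differences between groups in these ratios. Between the groups, the log2 ratio of KRT7 to KRT19 differed by 0.55, and by 0.023 without preconditioned replicate 2 and 1.05 without fresh replicate 3. For KRT4 to KRT13 the difference was 0.44, and 0.16 without fresh replicate 1 and 0.79 without fresh replicate 2. For KRT8 to KRT18 it was 0.53, and 0.35 without fresh replicate 3 and 0.77 without preconditioned replicate 1.

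**Figure D4:**
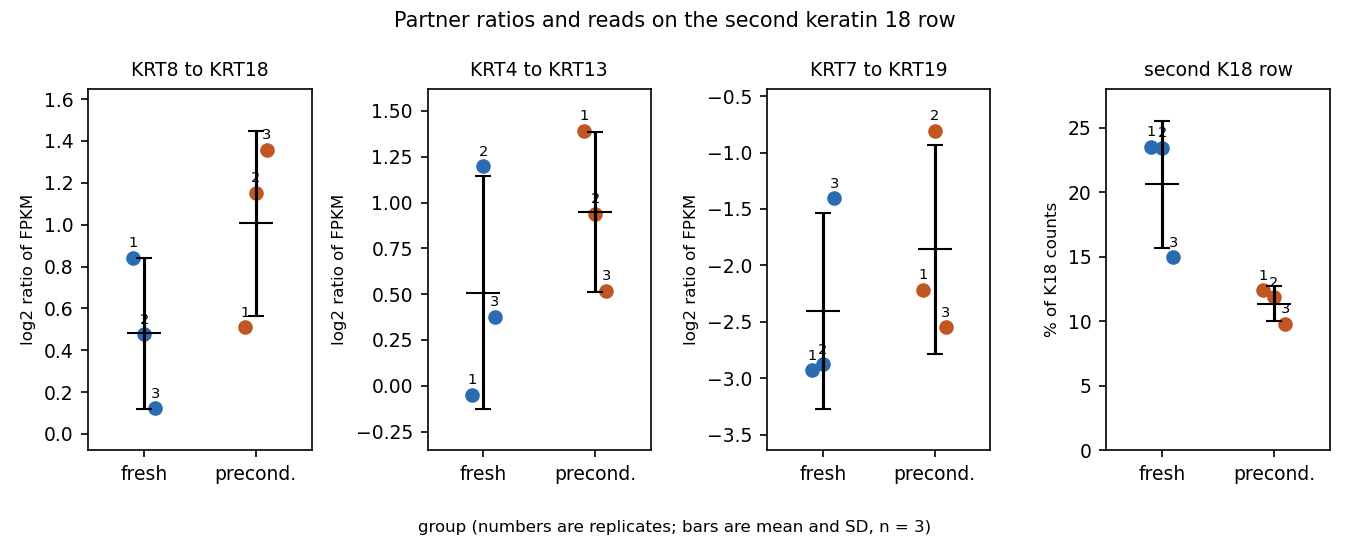
Log2 FPKM ratios of KRT8 to KRT18, KRT4 to KRT13 and KRT7 to KRT19, and the share of keratin 18 counts on the row LOC100008885 (right). Each library is 1 numbered point, with the mean and SD of each group (n = 3). The level of the KRT4 to KRT13 ratio rests on the implied length of KRT13. The ratios overlap between groups, whereas the share on the second row is 14.9% to 23.5% in fresh libraries and 9.82% to 12.4% in preconditioned libraries.

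Among all keratin rows, 27 had a KRT symbol and 15 only a description. In all, 22 of the 42 rows passed the filter, and 0 of the 22 were called. Of the 15 tested rows outside the list above, 9 had a negative log2 fold change. The most abundant row per length was LOC100344686, described as keratin 14, the basal type I keratin, with a log2 fold change of 0.51 (SE 0.20, adjusted p = 0.13). It held 49.8% of the FPKM on all keratin rows on average over the libraries, KRT19 held 19.5%, KRT5 12.3%, KRT3 4.71% and KRT7 4.50%. This order rests on an implied length of 8811 bases for KRT5, against 1653 for LOC100344686 and 1388 for KRT19. In CPM, the fresh means were 9601 for KRT5, 5923 for LOC100344686 and 2739 for KRT19. The preconditioned means were 9320, 8456 and 2122 CPM. KRT3, the corneal type II keratin, spanned 239 to 2655 CPM and had a log2 fold change of −1.21 (SE 0.72, adjusted p = 0.30), which was −0.25 (adjusted p = 0.83) without fresh replicate 2. KRT10, an epidermal type I keratin, was higher in all preconditioned libraries (36.7 to 44.1 CPM) than in all fresh libraries (21.3 to 30.1 CPM), but its log2 fold change of 0.62 (adjusted p = 0.061) was under the cutoff. KRT12 was not analysed here.

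**Figure D5:**
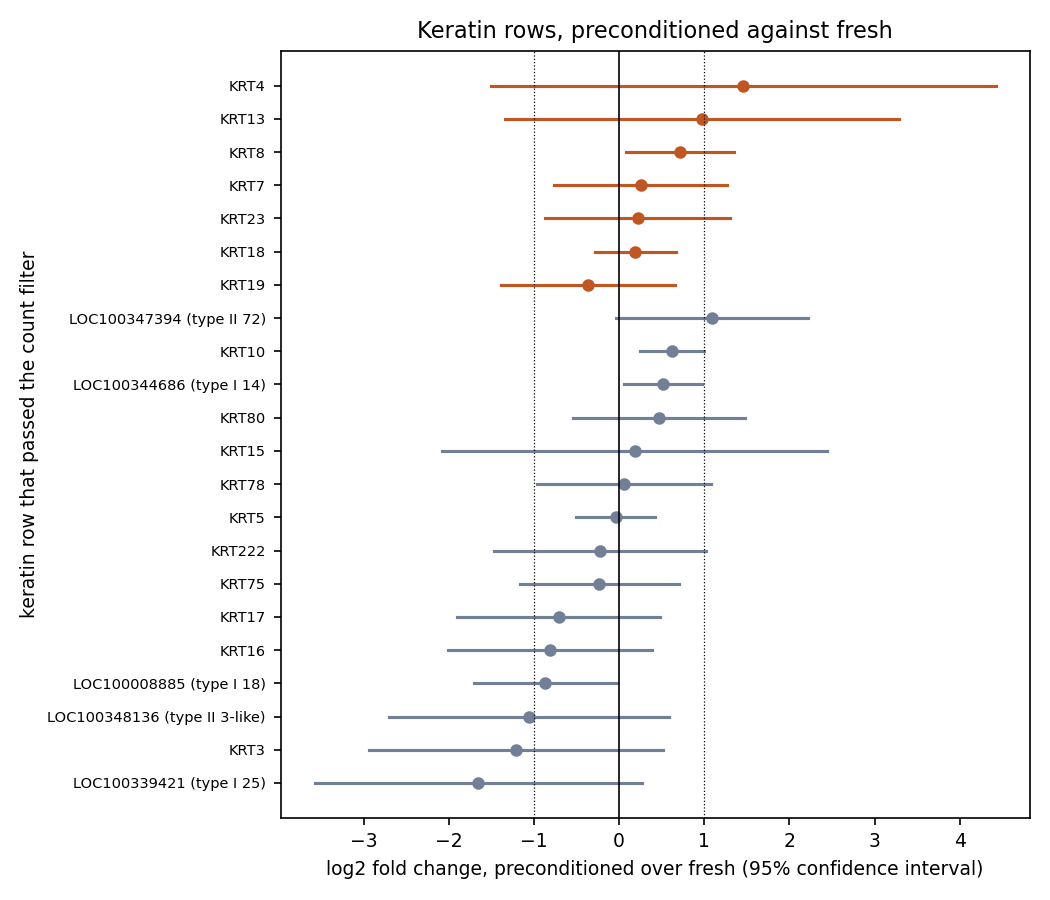
Log2 fold change of the preconditioned over the fresh group with its 95% confidence interval for the 22 keratin rows that passed the count filter, with the 7 conjunctival and simple keratins in orange and the other 15 in grey. Dotted lines mark the fold change cutoff, and the intervals of KRT4 and KRT13 are the widest, at −1.51 to 4.42 and −1.34 to 3.29.

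The share of the 7 keratins in the whole keratin pool depended on which rows were counted. They made up 54.7% to 57.4% of the FPKM on rows with a KRT symbol in fresh libraries and 58.8% to 62.4% in preconditioned ones. When rows known only by description were added, which brings in keratin 14, the shares were 26.9% to 37.7% and 23.4% to 29.8%, so that the difference changed sign and the groups overlapped. KRT5 has an implied gene length of 8811 bases, which lowers its FPKM and raises these shares. As a share of counts on rows with a KRT symbol, the 7 keratins made up 25.6% ± 3.18 in fresh libraries and 26.8% ± 1.81 in preconditioned ones (SD, n = 3 each).

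Genes that accompany these keratins were counted in fixed lists, without a test of the lists. Of 12 genes of mucosal stratified differentiation, 8 were tested, all 8 had a positive log2 fold change (median 0.999), and 1 was called, TMPRSS11D, an airway-type serine protease of mucosal epithelium. Over all 15029 tested genes, 7595 had a positive log2 fold change and 2.29% were called. Among the 8, SPRR3 (4 to 50 counts, log2 fold change 1.60) and A2ML1 (2 to 22 counts, 1.22) had low counts and overlapping groups. TMPRSS11D was expressed at 133, 105 and 121 CPM in the fresh libraries and at 300.3, 320.1 and 242 CPM in the preconditioned libraries, which gave 1.27 as the log2 fold change (SE 0.15, adjusted p = 0.018). Its values did not follow the single high library of KRT4 and KRT13. Of 12 genes of simple epithelium, all were tested, with a median log2 fold change of 0.31, and 1 was called higher and 1 lower. CLDN4, a tight junction claudin, rose from 247 ± 38.8 CPM to 575 ± 202 CPM (SD, n = 3 each), with 1.22 as its log2 fold change (SE 0.25, adjusted p = 0.046). PROM1, a membrane glycoprotein of epithelial protrusions, fell from 1.04 to 5.56 CPM in the fresh libraries to at most 0.198 CPM in the preconditioned libraries (log2 fold change −5.17, adjusted p = 0.041). That fold change rests on preconditioned counts of 4, 0 and 6, and with limma it was −2.95 on log2(FPKM + 0.1) and −0.93 on log2(FPKM + 1), where the call was lost (adjusted p = 0.063). Both calls, and that of TMPRSS11D, were lost when single libraries were left out, although the log2 fold changes stayed between 1.18 and 1.38 for TMPRSS11D, 0.90 and 1.40 for CLDN4, and −5.91 and −4.60 for PROM1. The CLDN4 call was also lost with limma on log2(FPKM + 1) (adjusted p = 0.054) and log2(FPKM + 0.1) (adjusted p = 0.052). CLDN4 had an adjusted p of 0.075 to 0.14 without any library but preconditioned replicate 1, PROM1 one of 0.090 to 0.14 without those same libraries, and TMPRSS11D one of 0.063 to 0.093 without fresh replicates 1, 2 or 3 or preconditioned replicate 2.

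Of 16 tested epithelial transcription factors, 0 were called in edgeR's test, 7 had a positive and 9 a negative log2 fold change. ELF3, an epithelial ETS factor, had 173 ± 42.2 CPM in fresh and 276 ± 36.9 CPM in preconditioned libraries (SD, n = 3 each, log2 fold change 0.68, adjusted p = 0.075). TP63, the factor of basal stratified epithelium, had 237 ± 10.1 CPM in fresh and 139 ± 38.9 CPM in preconditioned libraries (log2 fold change −0.77, adjusted p = 0.059). Without preconditioned replicate 1, TP63 passed both cutoffs (log2 fold change −1.03, adjusted p = 0.0040). Of 11 tested proteins that link keratin filaments to desmosomes and the cytoskeleton, 0 were called, with 4 positive and 7 negative log2 fold changes.

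Markers of other cells in the outgrowth were read beside these values. Of 8 goblet cell markers 5 were in the table and 2 passed the filter, and their summed level was 2.82 to 22.2 CPM for fresh and 4.21 to 18.1 CPM for preconditioned libraries. It was highest in fresh replicate 2 and preconditioned replicate 1, the same libraries that were highest for KRT4 and KRT13. FCGBP, a mucus protein, ranged from 0.49 to 18.8 CPM and was the larger part in fresh replicate 2 and preconditioned replicates 1 and 2. AGR2, a disulfide isomerase of secretory cells, ranged from 0.26 to 3.01 CPM and exceeded FCGBP in the other 3 libraries, while SPDEF and TFF3 stayed at or under 0.38 CPM. Its part in the levels of KRT4 and KRT13 was not tested. Of 7 corneal epithelial markers, 5 were in the table and tested, with 3 positive and 2 negative log2 fold changes. ALDH1A1, an aldehyde dehydrogenase, had a log2 fold change of 1.01 with groups that did not overlap but an adjusted p of 0.0505, that of PAX6, the eye field factor, was 0.81 (adjusted p = 0.11) and that of CLU 0.09 (adjusted p = 0.78). TKT, a transketolase abundant in cornea, was called lower (log2 fold change −1.06, adjusted p = 0.048). The call was lost without any single library but preconditioned replicate 1 (adjusted p 0.078 to 0.16), while the log2 fold change stayed between −1.24 and −0.87. Their summed level was 12127 to 17575 CPM and 13295 to 19641 CPM. Of 8 markers of limbal basal cells, 4 were in the table and 3 were tested, and their summed level, mostly TP63, was 244 to 259 CPM for fresh and 124 to 204 CPM for preconditioned libraries, which did not overlap. None was called, and GPHA2 reached at most 1.53 CPM. Stromal fibroblast markers, all 9 tested with 5 positive and 4 negative log2 fold changes, summed to 290 to 720 CPM for fresh and 849 to 1587 CPM for preconditioned libraries. COL1A1, a fibrillar collagen chain, was called higher (log2 fold change 2.66, adjusted p = 0.015). The call was lost without fresh replicate 2 (2.80, adjusted p = 0.069) or preconditioned replicate 2 (2.51, adjusted p = 0.067), with log2 fold changes of like size. Without COL1A1, a sum formed after the data were seen, the other 8 markers held 233 to 611 CPM and 344 to 895 CPM, which overlapped, and their log2 fold changes, 4 positive and 4 negative, ran from −1.27 (KERA) to 1.11 (COL1A2) without passing the test. Corneal endothelial markers summed to 76.2 to 276 CPM and 51.5 to 71.0 CPM, with 0 of 5 called. Their log2 fold changes were positive for 1 and negative for 4 (median −1.12). Immune markers summed to 102 to 134 CPM and 126 to 314 CPM and consisted almost wholly of CD68, while CD3E was at 0 in 5 libraries. All 4 tested immune markers had a positive log2 fold change (median 1.08), and 0 were called. Melanocyte and vascular endothelial markers reached at most 2.70 and 13.05 CPM in any library. The part of these cells in the keratin values was not tested.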

How the data were processed

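Alignment by the authors was with hisat2, and the deposited counts per gene, not normalized, are from htseq-count. The genome build, annotation and strand setting are not given in the sources used here. The deposited FPKM values divide each count by the library's total and by 1 length per gene, which was recovered from the values. Rows were chosen by gene symbol. The genes and lists were chosen with earlier results of these data known, and p values were adjusted over all tested genes only.

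The test was edgeR 4.0.16 in R 4.3.3 (filterByExpr, TMM, robust quasi-likelihood test, condition as the only factor). Standard errors were derived from the F statistic. Alternatives were DESeq2 1.42.0, its size factors, library size alone, other count filters, a block for the replicate number, omission of each library in turn, limma 3.58.1 on log2(FPKM + 1) or log2(FPKM + 0.1), glmTreat and no fold change cutoff. With at least 31952352 counts per library, the spread between libraries limits the precision. Genes named are the listed keratins, other keratin rows, called list genes, up to 4 genes of highest mean CPM in a list, and genes nearest in pattern to the 2 keratins of highest FPKM. HSD17B2, CXCL17, KRT15, HP1BP3, ALPL, AGR2, KERA, PAX6, ELF3, TP63, GPHA2 and single marker genes at low level were named after their values were seen. The scripts were tested on simulated data.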

Additional observations from a re-analysis of the deposited data

How the results depend on the processing

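The count of 0 called keratins was the same in all 16 alternatives, although the number of genes called over the whole table was not. Against 344 genes, DESeq2 gave 1190, library size alone 565 (142 higher, 423 lower), limma on log2(FPKM + 0.1) 521, glmTreat 24 and no fold change cutoff 763. With the replicate number as a block 30 genes were called, and the calls of TMPRSS11D (adjusted p = 0.065), CLDN4 (0.076), PROM1 (0.063) and TKT (0.11) were lost at log2 fold changes of 1.26, 1.18, −5.31 and −1.07. The block gave 0.24 for KRT4 and 0.017 for KRT13. Leaving out each library gave 14 to 1546 genes, the highest without preconditioned replicate 1. Deviations of same-numbered libraries were not visibly shared. Their correlations across genes were −0.067, −0.073 and −0.11, and 0 of 6 libraries correlated best with their own number. A weak effect shared by number could be missed in this way. Whether the numbers pair the samples by donor or batch is not given in the sources used here. Without preconditioned replicate 1 KRT19 and KRT8, without fresh replicate 2 KRT8 and KRT18, and without preconditioned replicate 3 KRT7 no longer overlapped, which gave 0 to 2 keratins in all. Such separation is easier with fewer libraries, and over all tested genes it rose from 36.7% to 58.6%, 42.1% and 44.9% under these omissions. Leaving out each library gave log2 fold changes of −0.98 to 2.65 for KRT4, −0.98 to 1.53 for KRT13, −0.0071 to 0.62 for KRT7 and −0.35 to 0.55 for KRT23. On log2(FPKM + 1) those of KRT7 and KRT23 were −0.036 and −0.055, and on log2(FPKM + 0.1) −0.036 and −0.078, while the medians over all tested genes were −0.094 and −0.15, so that both genes lay above the median in either setting. The difference in the share of keratin FPKM was 4.24 percentage points (3.32 to 5.12 without single libraries), −5.11 with keratins by description added, which bring in keratin 14, and 1.16 as a share of counts. KRT8, KRT18 and KRT19 kept their sign in all 14 alternatives run for them. Library size alone moved the median over all tested genes from 0.01 to −0.16 on the log2 scale. The cause of the other changes was not tested.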

Other observations

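Other intermediate filament genes and keratin linkers had values outside the comparisons above. LMNB1, a nuclear lamin, was measured at 46.0 to 57.9 CPM in the fresh libraries and 7.41 to 27.5 CPM in the preconditioned libraries, with preconditioned replicate 1 highest of its group, and did not pass the cutoffs (edgeR, adjusted p = 0.072). VIM, the mesenchymal filament, was at 240 to 425 CPM in the fresh and 252 to 735 CPM in the preconditioned libraries. Among linkers, EPPK1 had 24.3 to 36.3 CPM in the fresh and 8.54 to 22.0 CPM in the preconditioned libraries (adjusted p = 0.10), and DST had 774 to 1280.2 and 1080 to 2725 CPM (adjusted p = 0.16). Among surface mucins, MUC4 reached 2055 CPM in fresh replicate 2, against 114 to 536 CPM in the other libraries, and MUC21 was highest in preconditioned replicate 1 (93.4 CPM). These genes were named after their values were seen.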
